A study of Saccharomyces cerevisiae with 262 samples.

Results

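HAP1 encodes a heme-activated transcription factor of budding yeast, and its transcript level differed widely among haploid segregants of a cross between 2 strains. Transcript levels of all other genes were compared between the segregants lowest in HAP1 and the segregants highest in HAP1. The groups were chosen by the measured HAP1 level itself: segregants were ranked on it, the lowest 36 (low-HAP1 segregants, or low group) were set against the highest 36 (high-HAP1 segregants, or high group), and the 37 segregants between them (middle group) were left out of the test. They belong to 131 strain pairs in the whole series, of which 18 were pairs of the parents. Segregants 21-1-d, 22-5-d and 23-2-d were left out by rule, and 21-3-d had no HAP1 value.

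Each array was a 2-colour hybridisation of total RNA from 1 haploid strain against a reference pool of RNA from BY4716, and each strain was measured on a pair of arrays with the dyes exchanged. The segregants came from a cross of BY4716 (BY), a laboratory strain isogenic to S288c, with RM11-1a (RM), a wild isolate from a vineyard, and each segregant is a strain of its own with 1 pair. The parents gave 6 RM replicates and 6 BY replicates. No treatment, growth medium, date or batch is given in the labels, and they do not say whether the 2 arrays of a segregant came from separate cultures, so the tests measure the spread among segregants. Every value is a log2 ratio with the strain's own RNA on top and the BY4716 pool below, so 0 is the level of the pool and 1 unit is a doubling. Neither the direction nor the base of the ratio was stated with the values; both were read from the data and are likely rather than given.

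Hap1 is a zinc-cluster protein that binds DNA when heme is present, and heme synthesis in yeast needs oxygen. It activates genes of respiration, of ergosterol synthesis and of defence against oxidative damage, and it activates ROX1, the repressor of genes used at low oxygen. In S288c and its relatives a Ty1 element lies in the 3′ end of HAP1 and lowers the activity of the protein, and RM11-1a carries no such insertion. HAP1 (YLR256W) lies on chromosome XII, has a coding length of 4509 bp in the R64 assembly, and was measured by 1 probe, and where along the gene that probe lies is not given here.

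The low and high groups differ in HAP1 because they were chosen on it, and the values are a description with no test. Over the low-HAP1 segregants the HAP1 level ran from −1.56 through a median of −1.11 to −0.78, over the middle group from −0.77 through −0.52 to −0.27, and over the high-HAP1 segregants from −0.25 through 0.00 to 0.78. Mean levels were −1.12 ± 0.194 in the low-HAP1 segregants and 0.06 ± 0.247 in the high-HAP1 segregants (SD, n = 36 each). The levels formed a continuous range: at the lower boundary, segregant 5-5-d was inside the low group at −0.776 and 8-7-b was just outside it at −0.766, and at the upper boundary 7-1-d was inside the high group at −0.25 and 3-1-d was outside it at −0.265. RM averaged −1.62 ± 0.0478 and BY averaged 0.08 ± 0.080 (SD, n = 6 each), so the low group lay on the side of RM and the high group around BY. The difference between the dye orientations of a segregant had a mean of 0.008 for HAP1 and an SD of 0.363, and that SD is larger than the step at either boundary.

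**Figure D1:**
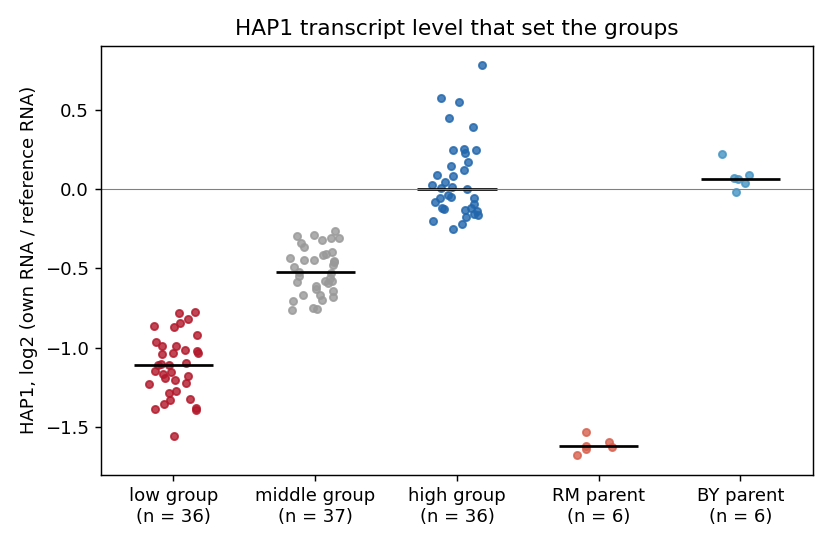
HAP1 level (log2 own over reference) of every ranked segregant and of the parental replicates, by group, 1 point per strain pair or replicate. The low group spans −1.56 to −0.78 and the high group −0.25 to 0.78, with the RM replicates near −1.62 and the BY replicates near 0.08.

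Arrays held values for 3597 to 6581 of 7085 probes. Between the exchanged-dye arrays of a segregant, r over all probes (which are not independent replicates) was 0.748 at the median in the low and high groups (range 0.371 to 0.896) and 0.080 to 0.156 in the 3 segregants left out by rule. After the low-HAP1 and high-HAP1 segregants were compared by limma, 1095 of 5261 probes passed (20.8% at an adjusted p under 0.05). Of these probes, 643 were higher and 452 were lower in the low-HAP1 segregants. Counted over named genes, 1028 of 4865 passed (21.1%), with 612 higher (12.6%) and 416 lower (8.55%). Because HAP1 and every other gene were read on the same arrays, error shared within a pair enters both. When the groups were set on the Cy5 arrays and the genes were tested on the Cy3 arrays, 685 probes passed, and with the dyes the other way round 406 passed.

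Most of the differences were small. The median size of a called difference was 0.22, the median difference over all tested genes was 0.01, and 16 called genes differed by more than 1 log2 unit, 9 of them higher and 7 lower. For 0 of the called genes were the groups free of overlap. The test did not use the middle group. Its mean lay between the low and high means for 968 of 1028 called genes (94.2%), beside 2784 of 4865 genes tested (57.2%). Called genes were chosen for the distance between the low and high groups. That choice by itself raises the share of middle means in between, so no conclusion is drawn from it.

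The genes linked to heme and to Hap1 moved mostly upward in the segregants with a low HAP1 transcript level. Of the 22 tested members of that list, 17 were higher, 1 was lower and 4 did not pass. Of all tested genes 12.6% were called higher and 8.55% lower. The median difference of the list was 0.46, beside 0.01 over all genes tested. The largest differences among the members were those of YHB1, CYC1 and HMG1, at 3.17-fold, 2.20-fold and 2.00-fold higher. Members that did not pass included CYB2 and CTT1, which encode a heme-containing lactate dehydrogenase and cytosolic catalase. The list is not independent evidence of its direction, since it was drawn up with earlier results of these data known.

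HMG1 encodes the main form of HMG-CoA reductase, the step that commits carbon to the mevalonate pathway. Its level ran from 0.79 through a median of 1.29 to 2.02 in the low-HAP1 segregants (n = 35), against −0.29, 0.21 and 1.37 in the high-HAP1 segregants (n = 36). All 35 low-HAP1 segregants lay above the high median and 35 of 36 high-HAP1 segregants lay below the low median, although the ranges overlapped. The difference was 1.00 (SE 0.0805, limma adjusted p = 6.75e-16). In the middle group the mean was 0.68 and the segregants spread over both ranges.

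CYC1 encodes iso-1-cytochrome c, the main electron carrier between complexes III and IV and the best known target of Hap1. It ran from 0.16 through 1.36 to 2.47 in the low-HAP1 segregants (n = 31), against −0.50, 0.12 and 1.59 in the high-HAP1 segregants (n = 29). Every one of the 31 low-HAP1 segregants was above the high median. The difference was 1.14 (95% interval 0.86 to 1.42, limma adjusted p = 9.33e-09). CYC7, which encodes the minor iso-2-cytochrome c, ran from 0.24 through 1.15 to 1.84 in the low-HAP1 segregants (n = 32), against −0.95, 0.16 and 2.34 in the high-HAP1 segregants (n = 35), a difference of 0.91 (SE 0.129, adjusted p = 2.27e-07).

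YHB1 encodes flavohemoglobin, which removes nitric oxide. Its levels were 0.38, 2.04 and 3.00 (lowest, median and highest) in the low-HAP1 segregants and −1.50, −0.02 and 3.09 in the high-HAP1 segregants (n = 35 each). The low group lay close together with an SD of 0.587, the high group was spread over an SD of 1.15, and the ranges overlapped at the top. The difference was 1.66 (SE 0.213, limma adjusted p = 1.43e-08).

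Of the members that did not pass, CYB2 ranged from −0.98 through 0.67 to 3.02 in the low-HAP1 segregants (n = 29) and from −1.49 through −0.05 to 4.70 in the high-HAP1 segregants (n = 30), with a difference of 0.73 (limma adjusted p = 0.0637). CTT1 spanned −2.39 to 4.04 in the low-HAP1 segregants and −2.16 to 4.35 in the high-HAP1 segregants, with a difference of −0.18 (SE 0.386, adjusted p = 0.768). NCP1, which encodes the reductase that feeds electrons to cytochrome P450, differed by 0.11 (adjusted p = 0.184), and MGA1, a gene related to heat shock factors, by −0.01 (adjusted p = 0.961). SUR2, the sphinganine hydroxylase gene, was the 1 member that fell, by 0.32 (adjusted p = 0.0115), with medians of −0.46 in the low-HAP1 segregants and −0.05 in the high-HAP1 segregants.

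**Figure D2:**
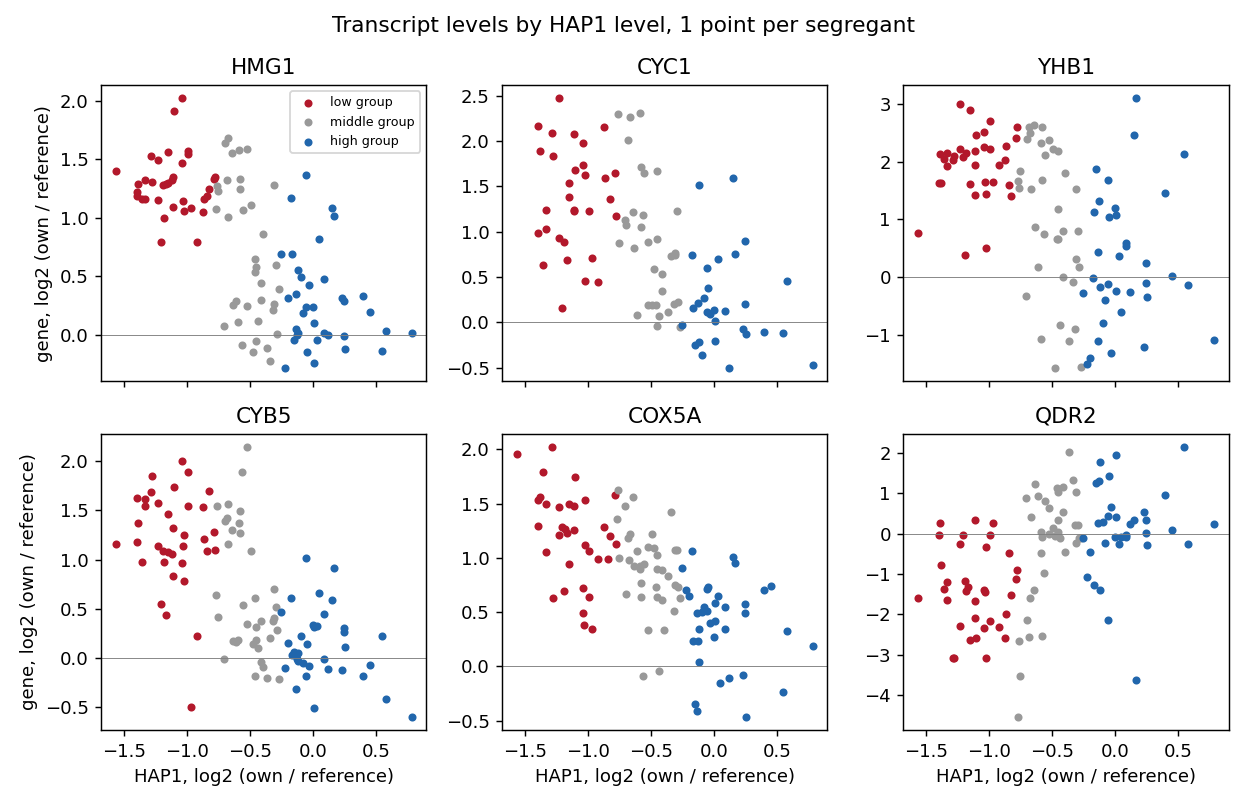
Level of HMG1, CYC1, YHB1, CYB5, COX5A and QDR2 (vertical axes) against HAP1 level (horizontal axes), both log2 own over reference, with 1 point per ranked segregant coloured by group. The low group stands above the high group in the first 5 genes, with differences from 0.81 for COX5A to 1.66 for YHB1, and below it for QDR2, at −1.50; single segregants of the 2 groups overlap in each panel.

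The nuclear genes of the cytochrome part of the respiratory chain were higher in the low-HAP1 segregants, and those of the tricarboxylic acid cycle did not pass. All 10 tested genes of complex III and cytochrome c were higher, with a median difference of 0.57, and 7 of 9 genes of complex IV were higher, with 1 lower and 1 not called and a median of 0.48. Of the ATP synthase genes 5 of 12 were higher (median 0.23), but 2 were higher when groups and genes were read on different dyes, either way round, and 1 with the lowest 54 against the highest 54 segregants. By contrast, 0 of 5 complex II genes (median 0.14) and 0 of 12 tricarboxylic acid cycle genes (median 0.05) passed. Beside these counts stand 12.6% of all tested genes called higher and 8.55% called lower.

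Within complex III, RIP1, the Rieske iron-sulfur protein gene, had levels of 0.37, 1.32 and 2.13 (lowest, median and highest) in the low-HAP1 segregants (n = 36), against −0.87, 0.57 and 1.49 in the high-HAP1 segregants (n = 35). The difference was 0.80 (SE 0.125, limma adjusted p = 2.04e-06). CYT1, which encodes cytochrome c1, was higher by 0.77 (adjusted p = 5.9e-06), QCR6 by 0.67 (adjusted p = 1.7e-07) and QCR2, a core subunit gene, by 0.42 (adjusted p = 0.00166). For each of these 4 genes the groups overlapped and the medians were higher in the low-HAP1 segregants.

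Complex IV uses either of 2 forms of a subunit, Cox5a or Cox5b, and the differences of their genes had opposite signs. COX5A, the form made in air, ran from 0.34 through 1.24 to 2.02 in the low-HAP1 segregants (n = 34), against −0.47, 0.49 and 1.06 in the high-HAP1 segregants (n = 36), a difference of 0.81 (SE 0.0970, limma adjusted p = 1.53e-09). COX5B, the form made at low oxygen, was lower, at −0.45 (adjusted p = 0.0362), and this call ended in 9 of 18 other settings, among them a fit with the markers LEU2, URA3, STE3 and DSE1 as 4 covariates, quantile normalization and the lowest 54 against the highest 54 segregants (largest adjusted p = 0.341). COX8, COX12 and COX13, which encode small subunits, were higher by 0.66, 0.58 and 0.53, with adjusted p between 1.48e-06 and 4.38e-05, and COX9 differed by 0.15 (adjusted p = 0.23).

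Among the other mitochondrial lists NDE1 had the largest difference. This external NADH dehydrogenase gene ran from −0.08 through 1.07 to 1.98 in the low-HAP1 segregants (n = 34), against −1.03, 0.27 and 2.32 in the high-HAP1 segregants (n = 35), a difference of 0.89 (SE 0.143, limma adjusted p = 3.43e-06). Its relative NDE2 differed by −0.41 (adjusted p = 0.191). In the list of lactate and NADH dehydrogenases 3 of 8 were higher and 0 lower, beside 12.6% of all tested genes called higher and 8.55% called lower. DLD1, a D-lactate dehydrogenase gene, was higher by 0.29 (adjusted p = 0.00061), and SOD2, the mitochondrial superoxide dismutase gene, by 0.42 (adjusted p = 0.00212). Of 22 mitochondrial ribosome genes 13 were higher and 0 lower (median 0.22), beside 12.6% and 8.55% of all tested genes. However, 2 were higher with the lowest 54 against the highest 54 segregants. With groups set on the Cy5 arrays and genes read on the Cy3 arrays 2 were higher, and 1 with those dyes exchanged.

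Ergosterol is the sterol of yeast membranes, and its synthesis uses oxygen and heme-containing enzymes in its late steps. Genes of both branches were higher in the low-HAP1 segregants: 8 of 9 in the mevalonate branch (median difference 0.32) and 12 of 15 from squalene to ergosterol (median 0.41), with 0 lower in either. With groups set on the Cy3 arrays and genes read on the Cy5 arrays 4 of the 9 mevalonate genes were higher. HMG2, which encodes the second HMG-CoA reductase, differed by −0.02 (limma adjusted p = 0.846), beside 1.00 for HMG1. The other members not called were ERG1, at −0.01, ERG4, at 0.04, and NCP1.

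IDI1, the isopentenyl diphosphate isomerase gene, had low spread within the groups. It ran from −0.15 through 0.31 to 0.71 in the low-HAP1 segregants and from −0.54 through −0.05 to 0.25 in the high-HAP1 segregants (n = 36 each), and the difference of 0.40 passed at an adjusted p of 1.46e-11 (limma). All 36 high-HAP1 segregants lay below the low median. ERG20, the farnesyl diphosphate synthase gene, was higher by 0.40 (adjusted p = 9.33e-09) and MVD1, the mevalonate diphosphate decarboxylase gene, by 0.46 (adjusted p = 1.27e-07).

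Past squalene, ERG5, which encodes a cytochrome P450 that desaturates the sterol side chain, ran from 0.46 through 1.04 to 1.38 in the low-HAP1 segregants (n = 36), against −0.16, 0.33 and 1.91 in the high-HAP1 segregants (n = 35). All 36 low-HAP1 segregants exceeded the high median, and the highest single value was in the high group. The difference was 0.64 (SE 0.0737, limma adjusted p = 5.4e-10). ERG25, the C-4 methyl sterol oxidase gene, was higher by 0.63 (adjusted p = 1.43e-09), ERG2 by 0.51, ERG11, which encodes the P450 that demethylates lanosterol, by 0.46, ERG9, the squalene synthase gene, by 0.44, and ERG3 by 0.41, with adjusted p from 1.57e-07 for ERG9 to 0.00122 for ERG3.

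**Figure D3:**
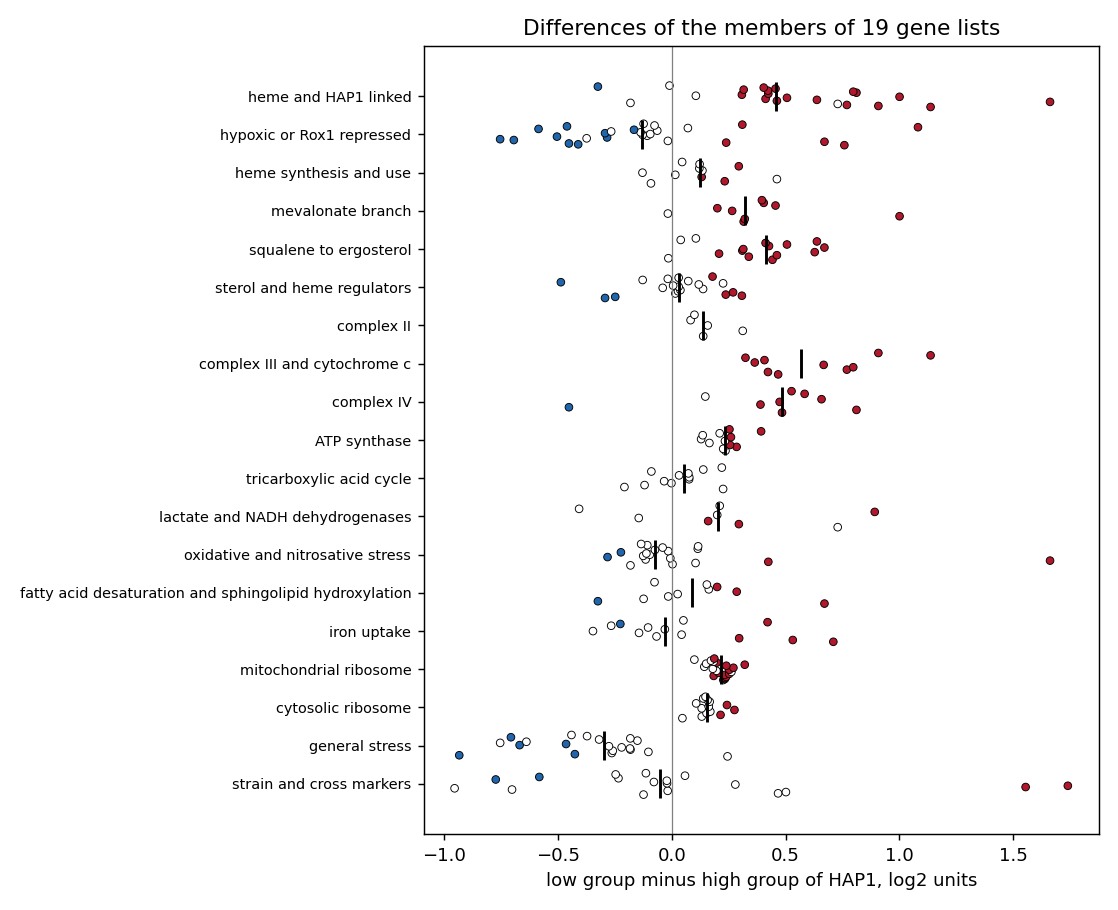
Difference of low minus high group (horizontal axis, log2 units) for every tested member of 19 gene lists (rows), 1 point per gene, with red for genes called higher, blue for genes called lower, white for genes not called and a bar at the median of each list. Complex III and cytochrome c has all 10 points in red around a median of 0.57, and the tricarboxylic acid cycle has all 12 points in white around 0.05.

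Genes used at low oxygen, many of them repressed by Rox1 in air, did not move one way. Of 26 tested members 5 were higher, 10 were lower and 11 did not pass, with a median difference of −0.13. With groups set on the Cy3 arrays and genes read on the Cy5 arrays 3 were higher and 6 lower. Over all tested genes 12.6% were called higher and 8.55% lower. The 5 higher members were CYB5, ANB1, OLE1, ERG26, a sterol synthesis gene, and AAC3, a mitochondrial ADP/ATP carrier gene. The calls of AAC3 and ERG26 ended in 5 and 1 of 18 other settings. Among the lower members were ATF1, the cell wall mannoprotein genes TIR1 and TIR2, the sterol importer gene AUS1, and EUG1, which encodes a relative of protein disulfide isomerase.

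CYB5 encodes cytochrome b5, an electron donor in sterol and lipid synthesis. Its levels were −0.50, 1.19 and 2.00 (lowest, median and highest) in the low-HAP1 segregants and −0.60, 0.06 and 1.01 in the high-HAP1 segregants (n = 36 each). All but 1 of the 36 low-HAP1 segregants were above the high median and all 36 high-HAP1 segregants below the low median. The difference was 1.08 (SE 0.101, limma adjusted p = 2.67e-13).

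OLE1, the fatty acid desaturase gene, ran from −0.07 through 0.53 to 1.29 in the low-HAP1 segregants and from −1.15 through −0.20 to 0.97 in the high-HAP1 segregants (n = 36 each). All 36 low-HAP1 segregants were above the high median, and the difference was 0.67 (limma adjusted p = 3.23e-07). ANB1, which encodes the low-oxygen form of translation factor eIF5A, was higher by 0.76 (SE 0.105, adjusted p = 1.57e-07), with medians of 1.08 in the low-HAP1 segregants (n = 30) and 0.13 in the high-HAP1 segregants (n = 36). HYP2, the near-identical gene for the form made in air, was chosen after its value was seen, and was higher by 0.87 (adjusted p = 1.28e-10). With sequences so alike, a probe can bind both transcripts, and the 2 genes' signals may not be separable.

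ATF1, the alcohol acetyltransferase gene, ran from −0.61 through −0.39 to 0.66 in the low-HAP1 segregants (n = 32), against −0.29, 0.14 and 0.72 in the high-HAP1 segregants (n = 34). All 34 high-HAP1 segregants were above the low median, and the difference was −0.46 (SE 0.0606, limma adjusted p = 3.63e-08). The remaining lower members are named after their values were seen: EUG1 differed by −0.59 (adjusted p = 2.53e-06), AUS1 by −0.50 (adjusted p = 4.84e-05), TIR2 by −0.75 (adjusted p = 0.0134), TIR1 by −0.69 (adjusted p = 0.0024) and HEM13, the coproporphyrinogen oxidase gene of heme synthesis, by −0.41 (adjusted p = 0.02). The calls of TIR2 and HEM13 each ended in 2 of 18 other settings, that of AUS1 in 1 and those of EUG1 and TIR1 in 0. PAU17 and PAU23 were lower too, and members of that family are too alike for a probe to separate them with certainty.

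Of the 20 tested transcription regulators of heme and sterol genes 4 were higher, 3 lower and 13 not called, beside 12.6% of all tested genes called higher and 8.55% called lower. With groups set on the Cy3 arrays and genes read on the Cy5 arrays 1 was higher and 2 lower. ROX1 ran from −0.74 through 0.26 to 0.71 in the low-HAP1 segregants and from −1.51 through −0.13 to 1.41 in the high-HAP1 segregants (n = 36 each). Its difference was 0.31 (SE 0.0926, limma adjusted p = 0.0141), and the call ended in 3 of 18 other settings, on the Cy5 arrays alone at 0.18 (adjusted p = 0.31). MOT3, a repressor that acts beside Rox1, was higher by 0.24 (adjusted p = 0.00169).

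The sterol sensors UPC2 and ECM22 were lower, at −0.29 (limma adjusted p = 0.000817) and −0.25 (adjusted p = 0.000624). ECM22 lies on chromosome XII at position −24, counted in genes from HAP1. The part of parental alleles near HAP1 in the difference of ECM22 was not tested. MGA2, which encodes a membrane-bound activator of OLE1, was lower, at −0.49 (SE 0.0865, adjusted p = 3.78e-05), with medians of −0.54 in the low-HAP1 segregants (n = 30) and 0.03 in the high-HAP1 segregants (n = 32). Of the heme-dependent Hap2/3/4/5 complex, HAP4, the gene of its activating subunit, was higher by 0.27 (adjusted p = 0.0384), a call that ended in 5 of 18 other settings, while HAP2 and HAP5 differed by 0.02 and 0.03 and did not pass. Chaperone genes that bind Hap1, HSP82, HSC82 and SSA1, differed by −0.04, 0.03 and 0.01 and did not pass. YDJ1 and SRO9, of the same list, differed by 0.12 and 0.23 and did not pass either (limma adjusted p = 0.184 and 0.0661).

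In the list of heme synthesis and use 3 of 11 were higher and 0 lower, beside 12.6% and 8.55% of all tested genes. HEM2, an early enzyme gene of heme synthesis, HEM4, the gene of the uroporphyrinogen synthase, and CYC3, which encodes the enzyme that attaches heme to cytochrome c, were higher by 0.23, 0.13 and 0.29, and these calls ended in 1, 8 and 6 of 18 other settings. These counts leave out HEM13, a heme synthesis gene counted among those used at low oxygen, which was lower. Of 13 iron uptake genes 4 were higher and 1 lower (median −0.03). FET3 and FTR1, the oxidase and permease of high-affinity iron uptake, were higher by 0.71 (limma adjusted p = 0.0135) and 0.53 (adjusted p = 0.00258), calls that ended in 4 and 2 of 18 other settings. In the iron list 1 gene was higher when groups and genes were read on different dyes, either way round, and 0 were higher with the lowest 27 against the highest 27 segregants.

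In oxidative and nitrosative stress 2 of 19 were higher, YHB1 and SOD2, and 2 lower, TRX2 and GRX1, at −0.28 and −0.22, so 4 were called beside 21.1% of all tested genes. The call of GRX1 ended in 5 of 18 other settings, with the 4 covariates at −0.18 (limma adjusted p = 0.0766). Of 20 general stress genes 0 were higher and 5 lower (median −0.30), among them HXK1 at −0.71 (limma adjusted p = 0.00252) and HSP26 at −0.93 (adjusted p = 0.0348), whose call was lost in 8 of 18 other settings. With LEU2, URA3, STE3 and DSE1 as covariates 1 of the 20 general stress genes was lower. Of 14 cytosolic ribosome genes 3 were higher (median 0.16), and 0 passed with those covariates. In the list of fatty acid desaturation and sphingolipid hydroxylation 3 of 10 were higher and 1 lower. The counts of these lists stand beside 12.6% of all tested genes called higher and 8.55% called lower.

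Outside the lists, the genes with the largest differences included several upward ones. PUT4, the proline permease gene, was higher by 1.22 (SE 0.320, limma adjusted p = 0.00497), PLN1, which encodes a lipid droplet protein, by 1.01 (SE 0.152, adjusted p = 8.96e-07) and SCM4, a mitochondrial outer membrane protein gene, by 0.99 (SE 0.175, adjusted p = 2.9e-05). All 36 low-HAP1 segregants were above the high median for PLN1, which ran from 0.69 through 1.49 to 2.67 in the low-HAP1 segregants and from −0.16 through 0.36 to 3.00 in the high-HAP1 segregants. PUT4 reached 5.51 in the low-HAP1 segregants and 4.59 in the high-HAP1 segregants.

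QDR2, a plasma membrane transporter gene of the multidrug family, had the largest downward difference among called genes. It ran from −3.09 through −1.43 to 0.34 in the low-HAP1 segregants (n = 35), against −3.63, 0.15 and 2.14 in the high-HAP1 segregants (n = 34). Although the single lowest value was in the high group, 32 of 35 low-HAP1 segregants were below the high median. The difference was −1.50 (SE 0.253, limma adjusted p = 1.18e-05), or 2.83-fold lower.

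Other lower genes had wide spreads within both groups. ARG1 and ARG3, of arginine synthesis, were lower, at −1.40 (SE 0.401, limma adjusted p = 0.00991) and −1.14 (SE 0.319, adjusted p = 0.00831). ARG1 ran from −3.27 through −1.33 to 2.12 in the low-HAP1 segregants and from −3.45 through 0.24 to 3.70 in the high-HAP1 segregants (n = 36 each), so the groups overlapped over nearly their whole range.

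ZRT1, the high-affinity zinc transporter gene, was lower, at −0.99 (limma adjusted p = 0.00323), ZPS1, a cell wall protein gene induced when zinc is short, at −1.27 (adjusted p = 0.00623) and ADH4, an alcohol dehydrogenase gene that neighbours ZRT1, at −1.29 (adjusted p = 0.0138). ATG41, an autophagy gene, was lower, at −1.21 (adjusted p = 0.00203) and YOR387C at −1.22 (adjusted p = 0.0162). With the 4 covariates YOR387C no longer passed, at −1.01 (adjusted p = 0.102), nor did ARG3, at −0.87 (adjusted p = 0.0827). With the lowest 54 against the highest 54 segregants, ZRT1, ZPS1 and ADH4 no longer passed, at −0.38, −0.50 and −0.58 (limma adjusted p = 0.266, 0.257 and 0.227). Nor did YOR387C pass there, at −0.55 (adjusted p = 0.245), and its call ended in 6 of 18 other settings.

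YER138W-A, a small open reading frame, varied less within the groups. It ran from −1.87 through −0.94 to −0.00 in the low-HAP1 segregants and from −1.03 through 0.01 to 1.36 in the high-HAP1 segregants (n = 36 each). All 36 low-HAP1 segregants were below the high median, and the difference was −0.93 (SE 0.106, limma adjusted p = 3.35e-10). YDR034C-A and YMR046C were lower, at −0.90 (adjusted p = 7.88e-07) and −0.83 (adjusted p = 0.000229). The signal of YMR046C may not be separable from that of YMR045C, which overlaps it on the same strand and was lower, at −0.69 (adjusted p = 0.00248). The parents differed widely in these genes. YMR046C averaged −6.75 in RM and −0.17 in BY, YDR034C-A −2.24 and 0.10, and YER138W-A −1.34 and 0.10 (n = 6 in RM, 5 in BY). Whether each probe reads 1 gene alone was not tested.

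Genes that mark the parental strains and the cross were called about as often as all genes, 4 of 18 beside 21.1%. DSE1 and DSE2, transcribed in daughter cells, where they act in cell separation after division, were the 2 of 18 members that were higher, and ADE17, a purine synthesis gene, and FUS1, a mating gene, were the 2 that were lower. The other 14 tested markers did not pass, among them LEU2 at −0.12, URA3 at 0.47 and STE3 at −0.70. FUS1 differed by −0.77 (limma adjusted p = 0.02) and ADE17 by −0.58 (adjusted p = 0.0152). With LEU2, URA3, STE3 and DSE1 as covariates they no longer passed, at −0.71 (adjusted p = 0.0747) and −0.52 (adjusted p = 0.0672). The call of FUS1 ended in 7 of 18 other settings and that of ADE17 in 2. With the lowest 54 against the highest 54 segregants FUS1 differed by −0.16 (limma adjusted p = 0.7).

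DSE2 ran from −5.97 through −0.00 to 0.68 in the low-HAP1 segregants and from −7.12 through −4.10 to 0.75 in the high-HAP1 segregants (n = 36 each), with a difference of 1.74 (SE 0.558, limma adjusted p = 0.0207). Both groups covered nearly the same range, with more low values among the high-HAP1 segregants; in RNA of a whole culture, fewer daughter cells and less RNA per cell cannot be told apart. RM averaged −5.43 ± 0.199 and BY averaged 0.06 ± 0.097 (SD, n = 6 each), so for DSE2 the low-HAP1 segregants lay toward BY, while for HAP1 they lay toward RM. DSE1 and SCW11, a cell wall glucanase gene, had differences of 1.56 (adjusted p = 0.0175) and 1.51 (adjusted p = 0.0085). With groups set on the Cy3 arrays and genes read on the Cy5 arrays, DSE2 no longer passed, at 1.35 (adjusted p = 0.126).

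When LEU2, URA3, STE3 and DSE1 entered the fit as covariates, 573 probes passed, 344 higher and 229 lower, of which 537 had passed without them. SCW11 and DSE2 then differed by 0.05 (limma adjusted p = 0.775) and 0.06 (adjusted p = 0.852). HMG1 differed by 1.08 with the covariates, CYC1 by 1.23, YHB1 by 1.73, CYB5 by 1.13, COX5A by 0.88 and QDR2 by −1.73, each farther from 0 than without them. Other named genes moved toward 0. Among them ERG25 went from 0.63 to 0.59, IDI1 from 0.40 to 0.38 and YER138W-A from −0.93 to −0.82. In the heme and Hap1 list 18 genes were then higher and 1 lower, and CYB2 passed at 0.98 (adjusted p = 0.0347). Complex III and cytochrome c kept its count of 10 of 10 higher.

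**Figure D4:**
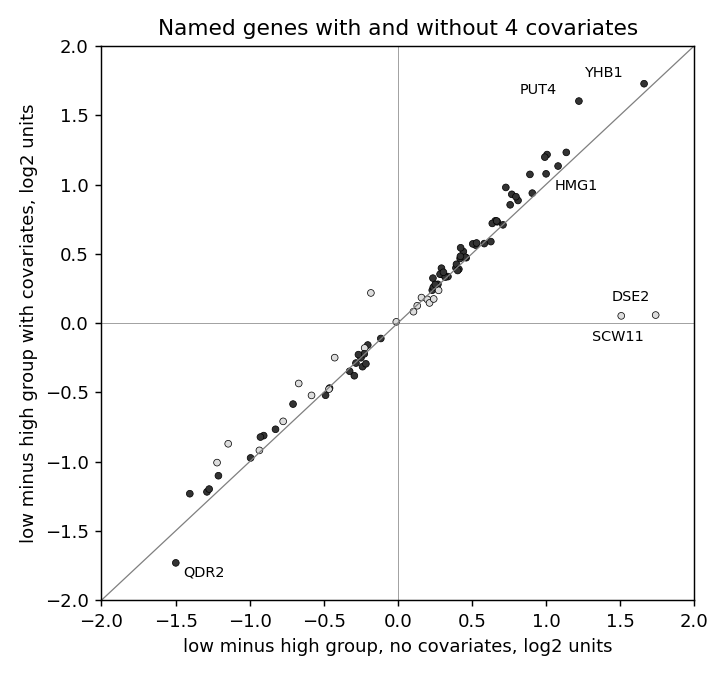
Difference of low minus high group for the named genes (DSE1 left out, since it is a covariate), without covariates on the horizontal axis and with 4 covariates on the vertical axis, in log2 units, with dark points for an adjusted p under 0.05 with the covariates. Most points lie near the diagonal, HMG1 at 1.00 without and 1.08 with covariates, while SCW11 and DSE2 lie at 0.05 and 0.06 on the vertical axis.

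By position, called genes were spread over all chromosomes. On chromosome XII 94 of 412 tested genes were called (22.8%), and 934 of 4453 on the other chromosomes (21.0%). Chromosome II had 90 of 340 called (26.5%), 77 higher and 13 lower, and 49 of the 340 with the covariates, 43 higher and 6 lower.

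Within 20 genes of HAP1 on either side, 9 of 32 tested genes were called (28.1%), 1 higher and 8 lower, against 85 of 380 on the rest of chromosome XII (22.4%). The called genes within 30 kb of HAP1 were all lower. SSP120, 5 genes before HAP1, ran from −0.58 through −0.18 to 0.21 in the low-HAP1 segregants and from −0.34 through 0.09 to 0.63 in the high-HAP1 segregants (n = 36 each), with a difference of −0.27 (limma adjusted p = 5.01e-05).

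GSY2, a glycogen synthase gene 3 genes after HAP1, differed by −0.46 (limma adjusted p = 0.0277), a call that ended in 5 of 18 other settings. NEJ1, a DNA repair gene, differed by −0.22, CSC1, a calcium-permeable channel gene, by −0.20, MAP1, a methionine aminopeptidase gene, by −0.24, and CDD1, the cytidine deaminase gene, by −0.11, with adjusted p from 0.00108 to 0.025. The call of MAP1 ended in 3 of the 18 settings and that of CDD1 in 1. Genotypes were not used here, and the part of parental alleles near HAP1 in these differences was not tested.

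**Figure D5:**
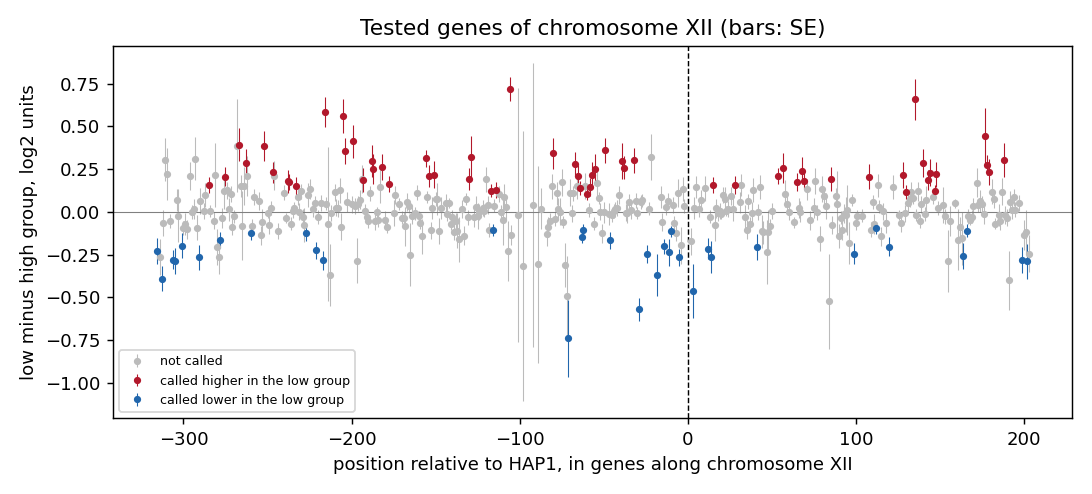
Difference of low minus high group (vertical axis, log2 units, bars for SE) for tested genes of chromosome XII with a place in the gene order, against their distance from HAP1 in genes (horizontal axis, 0 is HAP1), with called genes coloured. Of 32 tested genes within 20 genes of HAP1, 8 are called lower and 1 higher.

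Some called genes were next to each other on their chromosome. Both genes were called in 208 of 3990 neighbouring pairs with both tested (5.21%). A pair counts only when both its genes are called, so this share cannot be set against the 21.1% of single genes called. Of these 208 pairs 154 had differences of the same sign and 54 of opposite sign. Among the 31 called pairs with at least 1 named gene, 26 had the same sign and 5 the opposite. The shares that single-gene calls alone would give for pairs were not computed, so no conclusion is drawn from these counts. Of all tested genes 12.6% were called higher and 8.55% lower. PAU23 and COX12 were neighbours with opposite signs, at −0.28 and 0.58. The pairs named next were chosen after their values were seen. ANB1 and CYC1 are divergent neighbours on chromosome X and both were higher, as were YHB1 and MIC26 on chromosome VII, where MIC26, a mitochondrial inner membrane organising gene, differed by 0.63 (limma adjusted p = 3.58e-08). ERG20 and QCR8 on chromosome X were both higher, by 0.40 and 0.36, and ADH4 and ZRT1 on chromosome VII were both lower.

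The parents' values stand apart from the comparison of segregants. Their differences had the same sign more often for genes called higher than for genes called lower. Genes with at least 3 replicate values in each parent were counted. Of 785 such called genes, RM minus BY had the sign of low minus high for 505 (64.3%), beside 1945 of 3570 such tested genes (54.5%). The shares were 323 of 470 (68.7%) for genes higher in the low-HAP1 segregants and 182 of 315 (57.8%) for genes lower in them. The latter share is close to the 54.5% of all such tested genes, which were not counted by direction. CYC1 averaged 0.85 ± 0.199 in RM (SD, n = 6) and 0.01 ± 0.044 in BY (SD, n = 5). HMG1 averaged 1.45 ± 0.117 in RM (n = 6) and 0.08 ± 0.177 in BY (n = 3).

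COX5A averaged 1.70 ± 0.0568 in RM and −0.34 ± 0.307 in BY, and SUR2, the lower member, averaged −0.60 ± 0.0585 in RM and −0.08 ± 0.0805 in BY (SD, n = 6 each). ERG3, higher by 0.41 in the low-HAP1 segregants, averaged 0.29 ± 0.0555 in RM and 0.27 ± 0.378 in BY. Without BY replicate 1, which lay far below the others, BY averaged 0.42 ± 0.108 (SD, n = 5), above RM. ARG1 stood the other way round, at 0.19 ± 0.110 in RM and −1.73 ± 1.82 in BY (SD, n = 6 each), and was lower in the low-HAP1 segregants.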

How the data were processed

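The deposited values are log2 ratios on 262 arrays, and as deposited by the authors every array averages 0 (largest absolute mean 1.16e-08). Scanner, background correction and genome build are not given here; base 2 and the direction were inferred from the range (largest absolute value 11.98) and from LEU2, URA3 and LYS2. Sign was turned to own over reference, and a pair value is the mean of both dye-swap arrays, missing where either lacked the probe. A single gene symbol was given for 5645 of 7085 probes and was in the R64 gene table each time; the 1440 with none are not named.

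Low and high groups were compared with limma 3.58.1 (lmFit and eBayes, R 4.3.3) on probes measured in at least 80% of each group, without the HAP1 probe, with Benjamini-Hochberg adjustment over all 5261 probes and a two-sided threshold of 0.05. The number of segregants limits precision. Covariates with missing values were set to their mean. Steps were tested on simulated data. Tables and figures used Python 3.11.15, numpy 2.4.6, pandas 2.3.3 and matplotlib 3.10.9.

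The 19 gene lists and the members were chosen with earlier results of these data known. Named genes are the 12 highest and 12 lowest called genes, up to 4 called members per list by adjusted p, the members of the heme and Hap1 list not called, called genes within 30 kb of HAP1 and called strain markers. Parents are described, not tested; RM array repeats of a replicate number were averaged first. The alternatives tried were the array scaling, the dyes, the filter, other splits of HAP1, weights, a block on the first number of the strain name and covariates.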

Additional observations from a re-analysis of the deposited data

Results flagged for a closer look

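In both results below, 1 of 6 BY replicates lay far from the other 5; among 36 groups of parental values examined, chance alone would give some. ERG3 was −0.48 in BY replicate 1, against 0.24 in the nearest replicate and 0.52 at the other end. ROX1 was −0.24 in BY replicate 1, against 0.00 in the nearest and 0.11 at the other end. Without that replicate, left out after seeing the data, ERG3 in RM minus BY was −0.13, against 0.02 with it, and ROX1 was 0.41, against 0.46. Neither value enters the comparison of segregants.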

How the results depend on the processing

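Against 1095 probes called (643 higher, 452 lower), the counts that moved by over 1.5 times were 685 in all and 383 higher with groups set on the Cy5 arrays and genes on the Cy3 arrays, 406, 208 and 198 (all, higher, lower) with those dyes exchanged, 503, 266 and 237 with the lowest 54 against the highest 54 segregants, 683 in all and 374 higher with the lowest 27 against the highest 27, 573, 344 and 229 with 4 covariates, and 571, 332 and 239 with DSE1 alone as a covariate, which was added after seeing the data. Other settings gave 841 to 1423 calls, and leaving out the 5 segregants whose arrays correlated below 0.5, also added later, gave 1193. Probes called both in the reported comparison and under a setting had the same sign in all 18 settings, and 45 of 88 called named genes kept their call wherever a value could be had; the most calls among 92 named genes were lost with groups set on Cy3 and genes read on Cy5 (34), with 54 segregants a side (23), with the 4 covariates (17), and with 27 a side and with DSE1 alone (16 each). CTT1 and MGA1, never called, changed sign: CTT1 to 0.40 with groups set on Cy3 and genes on Cy5, 0.22 with the 4 covariates and with DSE1 alone, and 0.0005 as a slope on HAP1; MGA1 to 0.0063 with quantile normalization, 0.0107 on the Cy5 arrays, 0.0357 with groups set on Cy5 and genes on Cy3, 0.0274 with those exchanged, 0.0432 with 27 a side, 0.0362 with array weights, 0.0089 with the 4 covariates and 0.0123 with DSE1 alone; the cause was not tested. Median centring and quantile normalization changed the share of calls that were higher to 53.2% and 51.5%, against 58.7%. No other HAP1 probe was on the arrays. No paired analysis was possible because each segregant is a strain of its own whose replicate number is only a running number; a random block on the first number of the strain name (correlation 0.064) was fitted and called 1116 probes.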
